A study of Mus musculus with 4 samples.

Results

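A set of 10 genes that encode parts of the gamma-delta receptor or mark dermal gamma-delta T cells was followed through 4 RNA-seq libraries labelled as regulatory T cells (Tregs) of mouse skin. The set holds 10 of 55487 genes in the deposited tables and was selected on measured values, namely the difference in level between libraries numbered 1 and libraries numbered 2 in these same data. Its members are the receptor genes Trdc, Trdv4, Trgc1, Trgc2, Trgc4 and Trgv6 and the lineage genes Sox13, Blk, Cd163l1 and 5830411N06Rik. All mice of the study were shaved on the back and received 60 mg of a cream with 5% imiquimod, an activator of the RNA sensor TLR7, every day, which gives a psoriasis-like dermatitis. The non-UVB group (2 libraries) had the cream alone, and the UVB group (2 libraries) had the cream with 3 exposures to narrow-band ultraviolet B, given on alternate days. The study asked what this irradiation does to skin Tregs. The labels give no strain, genotype, age, sorting gate or number of mice behind a library. They number the libraries 1 and 2 within each group without saying whether the numbers stand for separate animals. A p-value here is therefore set by the spread of these 4 libraries alone, and that spread may be technical. Values are listed below in the order non-UVB 1, UVB 1, non-UVB 2 and UVB 2, in TPM, a level per length of transcript that sums to 1000000 in every library.

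Gamma-delta T cells carry a receptor built from a gamma and a delta chain, each joined from V, (for delta) D, and J segments to a constant (C) gene, in place of the alpha and beta chains of conventional T cells. In mouse skin, epidermal gamma-delta T cells pair Trgv5 with Trdv4, whereas a fetal-derived population that settles in the dermis pairs Trgv6 with Trdv4, both through the J segments Trgj1 and Trdj2. Interleukin 17-producing gamma-delta T cells of the dermis, which carry Trgv6 or Trgv4, are a main source of this cytokine in imiquimod dermatitis. The transcription factor Sox13 and the kinase Blk have roles in the development of such cells, and Cd163l1 and 5830411N06Rik encode the related surface receptors SCART1 and SCART2. Conventional Tregs carry an alpha-beta receptor and the transcription factor Foxp3.

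The libraries rested on 34.1, 42.0, 24.7 and 23.8 times 1000000 reads of 100 bases, so those numbered 2 were the shallower. Foxp3 was listed at 0, 3.49, 19.4 and 19.3 TPM and Cd4 had 6.02, 33.9, 138 and 71.6 TPM, so the defining Treg marker was listed at 0 in non-UVB replicate 1. Of 8 Treg identity genes 5 were higher in both libraries numbered 2, an order shown by 22.5% of all genes tested, and 0 were higher in both numbered 1. Of these 5, Ikzf4 reached the 1 TPM needed for testing in the libraries numbered 2 alone, which fixed its order. Other cell type markers also differed between libraries. The 9 keratinocyte markers summed to 195, 387, 3340 and 2761 TPM, with Krt14 at 101, 214, 1527 and 1232 TPM and Sfn at 50.5, 102, 589 and 719 TPM, so they stood together by number. The sums of the 13 myeloid markers did not, at 9992, 16550, 3735 and 11059 TPM. Cd74 had 3101, 4237, 1940 and 3838 TPM and Lyz2 had 1325, 4391, 216 and 1309 TPM. Gene by gene, 7 of 11 tested myeloid markers were higher in both libraries numbered 1, beside 18.5% of all genes tested. In both numbered 2, 0 were higher. Haemoglobin genes took 11.7%, 0.153%, 0.441% and 0.255% of TPM. The part of these values in the results below was not tested, and in bulk RNA fewer gamma-delta T cells and less receptor RNA per cell cannot be told apart.

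Segments that the results turn on are shown first, on GRCm38 and in GENCODE M21, which placed all 28 receptor and lineage genes looked up at the deposited coordinates. The gamma locus lies on chromosome 13 and its segments are arranged in cassettes. By position these read Trgv7, Trgv4, Trgv6, Trgv5, Trgj1 and Trgc1, then Trgv3, Trgj3 and Trgc3. Next come Trgc2, Trgj2 and Trgv2 on the minus strand, then Trgv1, Trgj4 and Trgc4. The last 60 bases of the V segments that held most V signal are given 5′ to 3′, with capitals from the codon of the conserved cysteine to the end of the segment, where joining takes place.
Trgv6, chr13:19190870-19190929, plus strand: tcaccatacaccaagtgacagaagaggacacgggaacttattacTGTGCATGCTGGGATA
Trgv5, chr13:19192666-19192725, plus strand: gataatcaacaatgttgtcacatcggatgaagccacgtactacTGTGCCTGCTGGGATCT
Trgv2, chr13:19336573-19336632, minus strand: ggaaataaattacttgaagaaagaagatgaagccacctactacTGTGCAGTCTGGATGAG
Trdv4, chr14:54075456-54075515, plus strand: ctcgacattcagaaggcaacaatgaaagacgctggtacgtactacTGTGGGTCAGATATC

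The J segments Trgj1 and Trgj2 differ at 4 of 60 bases, marked by capitals in Trgj2. They are shown because they separate the first cassette from the minus-strand cassette in the libraries.
Trgj1, chr13:19210343-19210402, plus strand: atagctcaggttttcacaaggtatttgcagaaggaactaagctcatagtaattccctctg
Trgj2, chr13:19311245-19311304, minus strand: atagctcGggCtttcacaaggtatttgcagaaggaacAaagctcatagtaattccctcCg

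The gamma constant genes are close copies, which limits how far reads can be assigned among them. In the first 100 bases of exon 1, shown with capitals where a gene differs from Trgc1, Trgc2 differs at 1 base, Trgc3 at 3 and Trgc4 at 12.
Trgc1, chr13:19214103-19214202, plus strand: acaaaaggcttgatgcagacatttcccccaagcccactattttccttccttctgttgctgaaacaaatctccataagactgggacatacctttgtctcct
Trgc2, chr13:19307452-19307551, minus strand: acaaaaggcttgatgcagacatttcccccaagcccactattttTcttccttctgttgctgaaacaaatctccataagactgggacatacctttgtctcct
Trgc3, chr13:19260885-19260984, plus strand: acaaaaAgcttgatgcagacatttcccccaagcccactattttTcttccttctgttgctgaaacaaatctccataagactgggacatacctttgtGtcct
Trgc4, chr13:19344558-19344657, plus strand: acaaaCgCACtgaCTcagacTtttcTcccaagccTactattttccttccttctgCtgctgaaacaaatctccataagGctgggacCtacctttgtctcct

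Over the whole 330 bases of exon 1, Trgc1 was 97.3% identical to Trgc2 and 82.1% identical to Trgc4. Of the 825 stretches of 100 bases, the length of a read, in the spliced Trgc1 transcripts, 68 (8.24%) also occurred in Trgc2 or Trgc3. Trgc2 shared 5 of 815 (0.613%) with Trgc1. No stretch of Trgc4, Trdc, Trdv4, Trgv6 or the 4 lineage genes occurred in another of the genes compared. A read from Trgc1 could therefore be given in part to Trgc2 or Trgc3, whereas reads of the other 8 members carry bases of their own.

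Among the members, the delta chain was represented by its constant gene and by 1 V segment. Trdc (ENSMUSG00000104876, chromosome 14, 54142851 to 54148868, plus strand), which encodes the constant part of every delta chain, had 1394, 1184, 48.5 and 71.6 TPM. Trdv4 (ENSMUSG00000076867, chromosome 14, 54074905 to 54075515, plus strand) had 4422, 3531, 119 and 159 TPM. Both libraries numbered 1 lay far above both numbered 2, by a ratio of means of 21.5 for Trdc and 28.6 for Trdv4, and within a number the UVB and non-UVB libraries lay close together. Trdv4 took 99.2%, 99.4%, 100% and 99.8% of the signal of the V segments named Trdv. Among these, Trdv4 thus led in libraries with much and with little delta RNA. V segments with other names were not counted, so this is not a share of all delta V signal. The level of Trdv4 relative to Trdc was 3.17, 2.98, 2.46 and 2.22. In the libraries numbered 2 the mean depth per base was 83.2 and 117 on Trdc and 205 and 260 on Trdv4, about 3214 and 4518 reads of Trdc, so these lower levels did not rest on a handful of reads. The 3′ end of Trdc overlaps Trdv5 on the opposite strand by 207 bases, and since no source used here gives the strandedness of the libraries, reads there cannot be assigned to either. Trdv5 itself had 4.21, 3.57, 0 and 0 TPM.

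**Figure D1:**
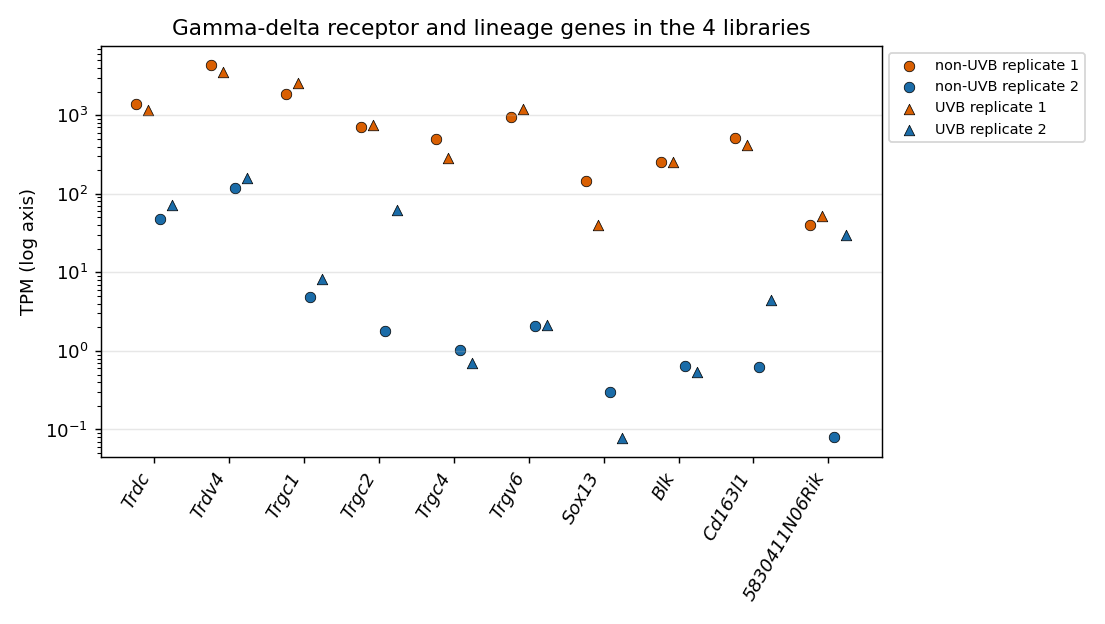
TPM on a log axis for each of the 10 genes, with orange points for libraries numbered 1, blue points for libraries numbered 2, circles for non-UVB and triangles for UVB (1 point per library, no error bars). Orange points lie above blue points for every gene, from Trdv4 at 4422 and 3531 TPM down to 5830411N06Rik, where UVB replicate 2 at 30.1 TPM comes near the 39.8 TPM of non-UVB replicate 1.

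The gamma chain genes showed a wider gap. Trgc1 (ENSMUSG00000076749, chromosome 13, 19214103 to 19217024), the constant gene downstream of Trgv6 and Trgv5, had 1884, 2575, 4.86 and 8.15 TPM. Trgv6 (ENSMUSG00000076746, chromosome 13, 19190356 to 19190929), the V segment of dermal cells, had 942, 1197, 2.10 and 2.14 TPM. Trgc4 (ENSMUSG00000076757, chromosome 13, 19344558 to 19352756), whose sequence is the most distant of the constant genes, had 497, 284, 1.04 and 0.697 TPM. For these genes of the plus strand both libraries numbered 2 were near the bottom of the scale, and the ratio of means between numbers was 343 for Trgc1, 504 for Trgv6 and 449 for Trgc4. Trgc2 (ENSMUSG00000076752, chromosome 13, 19304649 to 19307551, minus strand) departed from that pattern with 720, 760, 1.82 and 62.5 TPM. Its level in UVB replicate 2 lay above that in non-UVB replicate 2 and still below both libraries numbered 1, and its ratio between numbers was 23.0. The depth behind the low values was small for Trgc4, about 17.6 and 11.2 reads in non-UVB and UVB replicate 2. Trgc1 had about 77.1 and 123 reads there, and Trgc2 28.5 and 933. Read numbers here are the deposited depth per base multiplied by exon length and divided by read length, and hence approximate.

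The lineage genes comprise a transcription factor, a kinase and 2 surface receptors. Sox13 (ENSMUSG00000070643, chromosome 1, 133382303 to 133424377, minus strand), a transcription factor of developing type 17 gamma-delta T cells, had 147, 40.4, 0.302 and 0.0773 TPM. On the log2 scale it had the widest gap of the 10 members between the libraries numbered 1, with UVB replicate 1 below non-UVB replicate 1. Blk (ENSMUSG00000014453, chromosome 14, 63372836 to 63417037, minus strand), a Src family kinase of B cells and of interleukin 17-producing gamma-delta T cells, had 254, 254, 0.649 and 0.545 TPM. Of the B cell markers, Cd79a, Ms4a1 and Pax5 were listed at 0 in all 4 libraries, and Cd79b had 61.9, 21.2, 18.5 and 40.0 TPM, in an order unlike that of Blk.

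Cd163l1 (ENSMUSG00000025461, chromosome 7, 140218267 to 140231145, plus strand), which encodes SCART1, had 511, 419, 0.624 and 4.42 TPM. 5830411N06Rik (ENSMUSG00000054672, chromosome 7, 140247284 to 140300736, plus strand), which encodes SCART2, had 39.8, 52.0, 0.0810 and 30.1 TPM. The genes are neighbours, 16139 bases apart on the same strand, yet their levels did not run in parallel. In UVB replicate 2 the SCART2 gene stood above the SCART1 gene, and in the libraries numbered 1 the SCART1 gene was the higher. The ratio of means between numbers was 493 for Sox13, 425 for Blk, 184 for Cd163l1 and 3.04 for 5830411N06Rik, the smallest among the 10 members. The mean depth per base on the SCART2 gene was 9.87, 13.9, 0.0144 and 3.55.

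All 10 members had both libraries numbered 1 above both numbered 2. Since the members were selected on this contrast, nothing is read from that count, and it is given beside the background of 18.5% of 10286 genes tested that showed the same order, with 22.5% showing the opposite. All 10 also passed the filter for testing, at least 1 TPM in at least 2 libraries, which Sox13 and Blk passed through the libraries numbered 1 alone. The members summed to 10809, 10295, 179 and 339 TPM, or 1.08%, 1.03%, 0.0179% and 0.0339% of all TPM. The 6 receptor genes made up 9859, 9530, 177 and 304 TPM of this, and the 4 lineage genes 951, 765, 1.66 and 35.1 TPM. The median ratio between numbers was 7.97 on the log2 scale, 8.72 within the non-UVB libraries and 7.43 within the UVB libraries.

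Set against the constant genes of the alpha and beta chains, the delta and gamma genes were not a trace in the libraries numbered 1. Trac, the alpha constant gene, had 274, 554, 2350 and 878 TPM, an order opposite to that of Trdc. Trdc made up 83.6%, 68.1%, 2.02% and 7.54% of Trdc and Trac together. The beta constant genes did not follow Trac. Trbc1 had 1386, 809, 830 and 462 TPM, Trbc2 had 1418, 910, 1405 and 1026 TPM, and the pair summed to 2804, 1719, 2235 and 1488 TPM. The 4 gamma constant genes summed to 3156, 3717, 7.72 and 71.9 TPM. Gamma thus took 53.0%, 68.4%, 0.344% and 4.61% of gamma and beta constant RNA. In UVB replicate 2 the gamma share lay above that of non-UVB replicate 2, and it stayed far under that of either library numbered 1.

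**Figure D2:**
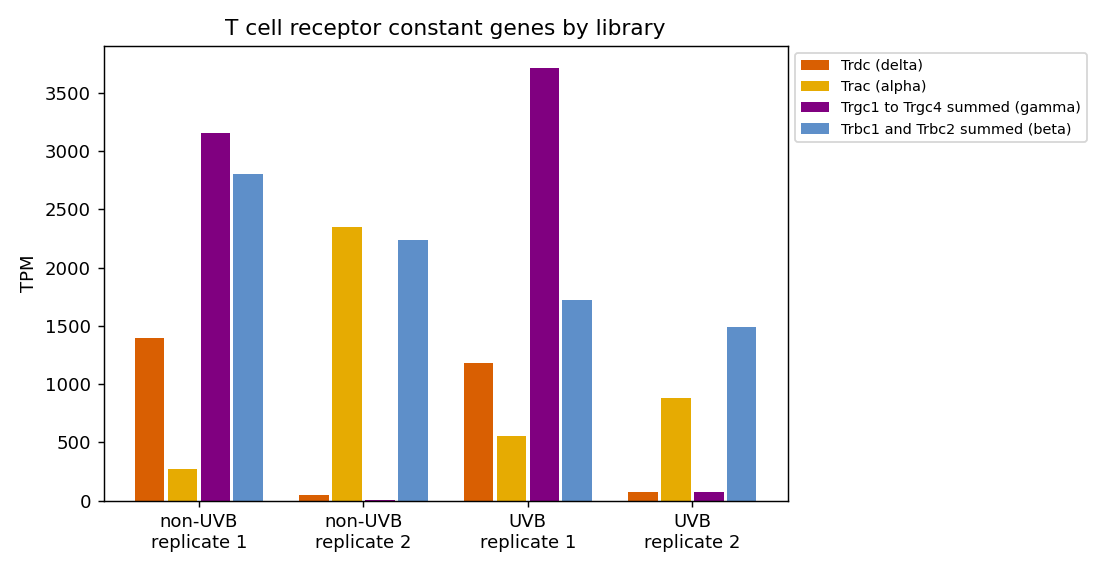
TPM of the constant genes of the 4 receptor chains in each library (bars from 0, 1 library each, no error bars): Trdc, Trac, the sum of Trgc1 to Trgc4, and the sum of Trbc1 and Trbc2. The gamma sum is 3156 and 3717 TPM where the number is 1 and 7.72 and 71.9 TPM where it is 2, while the beta sum stays between 1488 and 2804 TPM.

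The delta and gamma chains did not differ in proportion. Trdc stood to Trgc1 at 0.740, 0.460, 9.96 and 8.79 in the same order of libraries. Against the sum of the 4 gamma constant genes, Trdc was lower in both libraries numbered 1, higher in non-UVB replicate 2, at 48.5 against 7.72 TPM, and level in UVB replicate 2, at 71.6 against 71.9 TPM. Trgv6, which joins the gamma chain through Trgj1, stayed closer to its constant gene, at 0.500, 0.465, 0.432 and 0.263 of Trgc1. Trdj2, the delta J segment used with Trdv4 in skin, had 1430, 1264, 78.3 and 68.3 TPM, which is 1.03, 1.07, 1.62 and 0.955 of Trdc. Other segments did not keep such a balance, since Trgc2 lay below Trgc1 in 3 libraries and above it in UVB replicate 2, at 62.5 against 8.15 TPM. The J segments are shorter than a read, so their scaling by length is uncertain and their ratios to longer genes are approximate.

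The other genes of both loci placed the members in their cassettes. Of 15 gamma locus genes 13 had at least 10 TPM in some library, and of 11 delta locus genes 6. All 12 gamma and all 8 delta locus genes tested were higher in both libraries numbered 1, beside 18.5% of all genes tested. This order includes the members chosen for it. Others, among them Trgv5, Trgc3, Trgv1, Trgj4, Trdv2-2 and Trdd2, reached 1 TPM in the libraries numbered 1 alone, so the filter fixed their order. Nothing is read from this count. In non-UVB replicate 1 Trgv6 took 54.7% of gamma V signal, Trgv2 22.1%, Trgv5 12.4% and Trgv4 8.29%. In UVB replicate 1 the shares were 69.7%, 24.4%, 3.27% and 0%. Trgv5, the V segment of epidermal gamma-delta T cells, had 213, 56.2, 0.52 and 0.36 TPM, and Trgv4, common in lymph node and dermal cells, had 143, 0, 0.48 and 0 TPM. Trgv6 thus led in both libraries numbered 1. In UVB replicate 1 its share was higher than in non-UVB replicate 1, and those of Trgv5 and Trgv4 were lower.

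Trgv7, used by gut cells, had 13.8 TPM in UVB replicate 1 and was listed at 0 in the other 3 libraries. Trgj1 had 1151, 1122, 2.46 and 0 TPM, Trgc3 had 55.0, 97.5, 0 and 0.56 TPM, Trgv1 had 42.8, 30.6, 0 and 0.37 TPM, and Trgj4, the J segment of the Trgc4 cassette, had 148, 89.8, 0 and 0.38 TPM. In the delta locus Trdv2-2 had 24.9, 13.4, 0 and 0.37 TPM, the D segment Trdd2 had 86.9, 29.9, 0 and 0 TPM, and Trdj1 had 306, 180, 0.19 and 19.0 TPM. Each of these was at 2.46 TPM or less in non-UVB replicate 2, and of them only Trdj1 exceeded 1 TPM in UVB replicate 2.

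The gamma signal of UVB replicate 2 came from another cassette. Trgv2 had 380, 418, 1.10 and 26.8 TPM and Trgj2 had 346, 361, 0.19 and 24.6 TPM, a course close to that of Trgc2, with which they share the minus-strand cassette. In UVB replicate 2 Trgv2 took 90.2% of gamma V signal, Trgj2 98.5% of gamma J signal and Trgc2 86.9% of gamma C signal. In the other 3 libraries Trgv2 took between 22.1% and 26.2% of V signal and Trgc2 between 20.4% and 23.5% of C signal. Trgj2 took 20.99% and 22.9% of J signal in the libraries numbered 1 and 7.33% in non-UVB replicate 2. Shares in non-UVB replicate 2 rest on low V, J and C sums of 4.21, 2.65 and 7.72 TPM. The shift was thus seen in V, J and C segments alike, and not in the near-identical constant genes alone. No stretch of 100 bases of Trgv2 occurred in another of the genes compared. In the same library Trdj1 at 19.0 TPM, 5830411N06Rik at 30.1 TPM and Cd163l1 at 4.42 TPM were also above non-UVB replicate 2. It is 1 library, and no replicate bears on it.

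**Figure D3:**
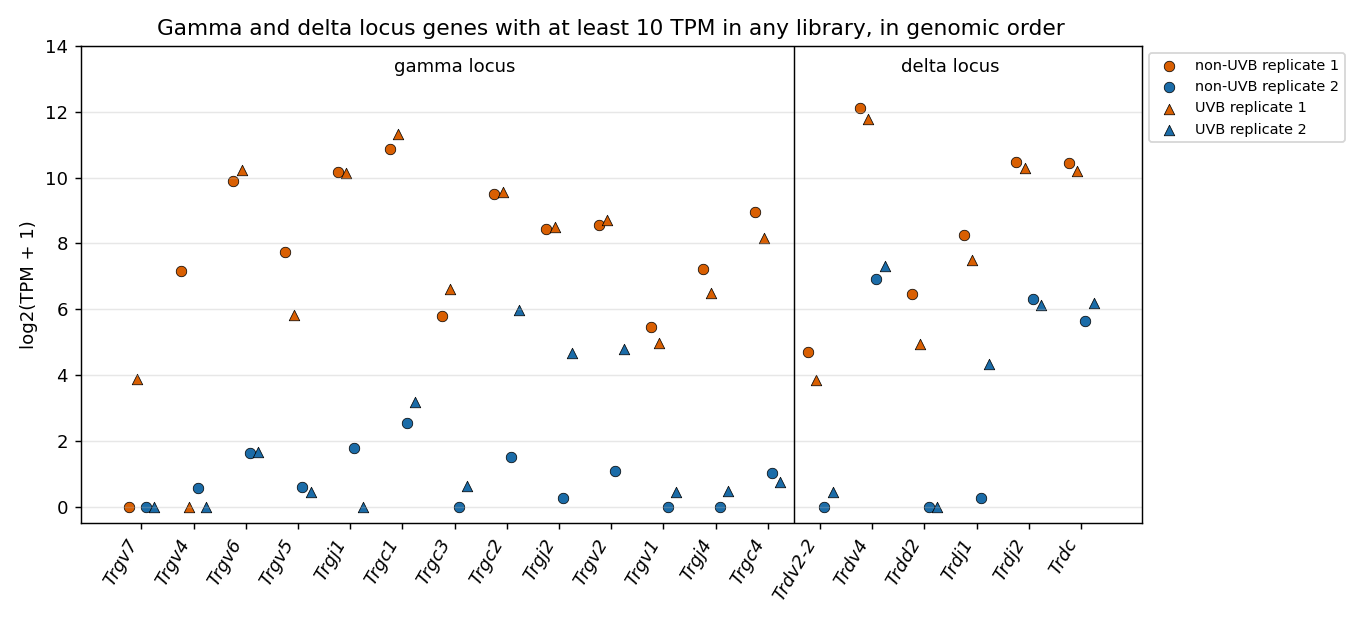
Levels as log2(TPM + 1) of the 19 gamma and delta locus genes with at least 10 TPM in any library, in genomic order along each locus (orange, libraries numbered 1; blue, libraries numbered 2; circles, non-UVB; triangles, UVB; 1 point per library). Blue triangles lie above blue circles at the neighbours Trgc2, Trgj2 and Trgv2, where UVB replicate 2 has 62.5, 24.6 and 26.8 TPM, and at Trdj1.

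UVB was the treatment of the study. The members were selected on the gap between numbers, and this gap is the spread within each UVB group, so the selection bears on the UVB test as well. It fixed that UVB and non-UVB libraries overlap for every member (0 of 10 separate, against 32.9% of all genes tested), and nothing is read from that count. With limma and Benjamini-Hochberg adjustment over 10286 genes no member passed an adjusted p of 0.05, and neither did any other gene (0%). At an unadjusted p under 0.05 there were 1167 genes (11.3%) and 0 members. Since the selection widened the members' standard errors, their absence from these calls is not a result about them. Means of log2(TPM + 1), the scale of all counts of higher and lower means below, were higher with UVB for 7 members and lower for 3, whereas means of TPM were higher for 5 and lower for 5. The members had a median difference of 0.17 on the log2(TPM + 1) scale, beside 6278 higher and 4008 lower genes and a median of 0.26 over all genes. Changes of genes with few TPM are compressed on this scale.

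Differences in the delta genes were small within each number and of opposite sign. Trdc had a mean of 721 ± 951 TPM without and 628 ± 786 TPM with UVB (SD, n = 2 libraries each). The log2 difference had the opposite sign to these TPM means, at 0.16 with a 95% interval from -6.22 to 6.53, at -0.24 within number 1 and 0.55 within number 2. Trdv4 differed by 0.04, at -0.32 and 0.41 within the numbers. For the gamma genes the differences were 0.55 ± 4.19 (SE) for Trgc1, 0.18 ± 4.29 for Trgv6 and -0.53 ± 3.95 for Trgc4. Trgc1 was 0.45 and 0.64 higher with UVB within the numbers, and Trgc4 was at -0.80 and -0.27. Trgc2 differed by 2.29 ± 3.17, with 0.08 within number 1 and 4.49 within number 2.

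Among the lineage genes, Sox13 differed by -1.05 ± 3.26, at -1.83 and -0.27 within the numbers. Within number 2 its levels of 0.302 and 0.0773 TPM were near 0, so that difference carries little weight. Blk differed by -0.05 ± 3.80, with 0.00 and -0.09 within the numbers. Cd163l1 differed by 0.73 ± 3.78, at -0.29 and 1.74. 5830411N06Rik had the largest difference of the 10 members, 2.61 ± 2.12, at 0.38 within number 1 and 4.85 within number 2, and its Benjamini-Hochberg adjusted p in limma was 0.957. For the other 9 members the Benjamini-Hochberg adjusted p in limma was 0.9998. Standard errors of the members ran from 2.12 to 4.29, against a median of 1.12 over all genes, and each group held 1 library of each number. Every member changed sign when some library was left out. Without non-UVB replicate 2 the difference was -1.71 for Trgc2 and -0.0076 for 5830411N06Rik. Intervals this wide leave both a large rise and a large fall with UVB within their bounds, so the data do not show that UVB left these genes alike.

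**Figure D4:**
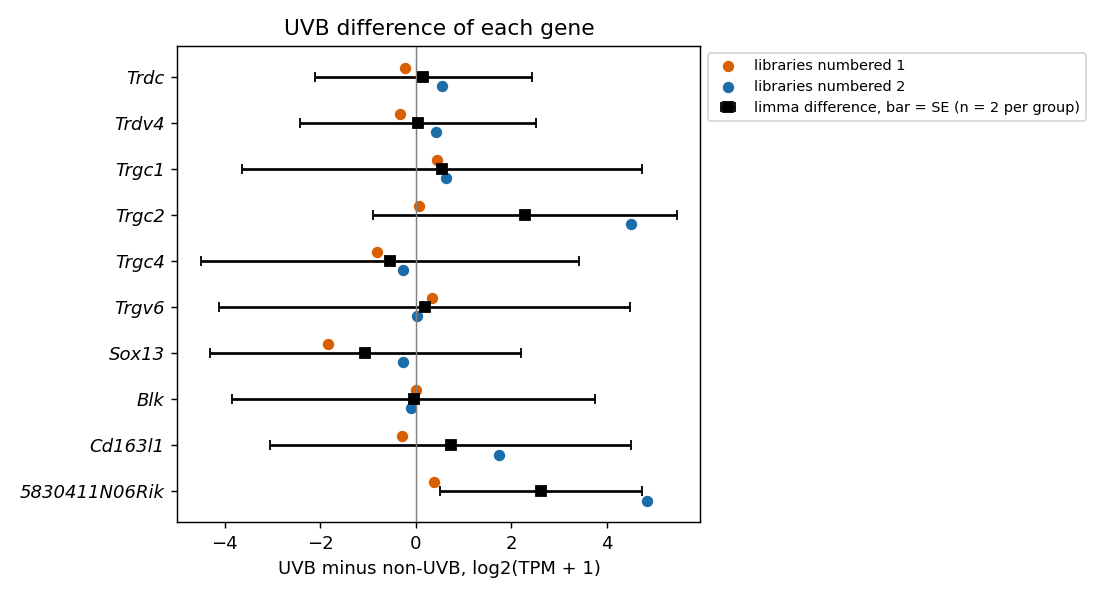
Difference between UVB and non-UVB on the log2(TPM + 1) scale for each member: black squares are the limma estimate with bars of 1 SE (n = 2 libraries per group), orange and blue points the difference within libraries numbered 1 and 2. All bars except that of 5830411N06Rik (2.61 ± 2.12) cross 0, and for Trgc2 and 5830411N06Rik the libraries numbered 2 (4.49 and 4.85) lie far to the right of those numbered 1 (0.08 and 0.38).

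Genes of the type 17 gamma-delta programme were examined as a list of 23 transcription factors, receptors, cytokines and surface proteins. Of 19 tested members 10 had both libraries numbered 1 above both numbered 2 and 2 had the opposite order, beside 18.5% and 22.5% of all genes tested. Of these 2, Sox4 passed the filter through the libraries numbered 2 alone, so its order was fixed. Il23r, a receptor subunit for the cytokine that sustains type 17 cells, had 138, 76.4, 0.108 and 0.290 TPM. It was near 0 in both libraries numbered 2 and passed the filter through those numbered 1 alone, so its order was fixed. The cytokines were not near 0 in the libraries numbered 2. Il17a had 2330, 1995, 904 and 799 TPM, Il17f had 14539, 13761, 1742 and 1601 TPM, and Il22 had 2605, 1648, 204 and 323 TPM. Interleukin 17 RNA thus remained abundant in non-UVB replicate 2, where Trgv6 had 2.10 TPM and Il23r 0.108 TPM.

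With UVB the programme showed 11 higher and 8 lower means (7 higher by mean TPM), a median difference of 0.10 on the log2 scale, beside 0.26 for all genes, and 0 genes past the limma threshold. The members of the list with the largest differences were Tcf7 at 2.17 ± 1.41, Serpinb1a at 1.49 ± 1.31 and Tmem176b at 1.43 ± 0.74 on the higher side, and Rora at -1.10 ± 0.54, Il7r at -0.93 ± 1.14 and Sox4 at -0.84 ± 2.21 on the lower side. Tcf7, a transcription factor of immature and resting T cells, had 0.250, 22.6, 1.14 and 1.30 TPM, so its difference came from UVB replicate 1. Rora, a nuclear receptor of type 17 and innate lymphoid cells, had 302, 86.9, 190 and 143 TPM and was lower with UVB within both numbers. Il7r, the receptor of a survival cytokine of T cells, had 225, 28.6, 50.9 and 109 TPM and differed in opposite directions within the numbers. Sox4 had 0, 0, 27.9 and 8.04 TPM and was lower with UVB within number 2. Between numbers it was the reverse of Sox13, and the filter fixed the order of both.

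**Figure D5:**
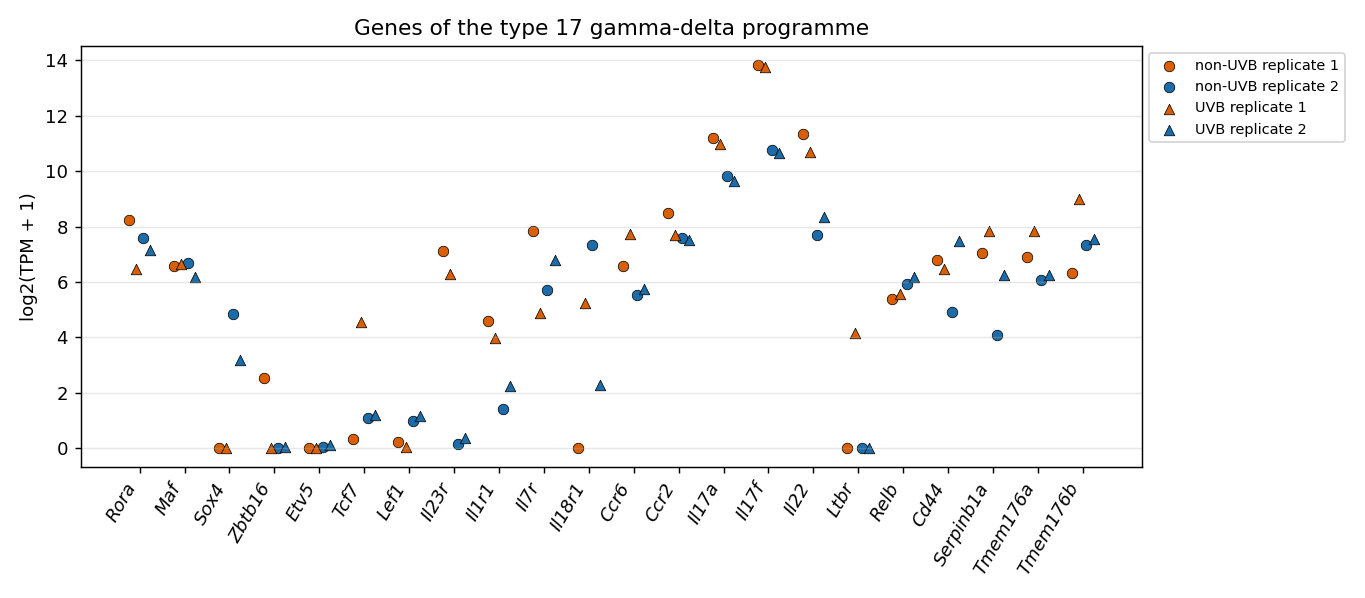
Levels as log2(TPM + 1) of the type 17 gamma-delta list, all but 1 of its 23 genes (orange, libraries numbered 1; blue, libraries numbered 2; circles, non-UVB; triangles, UVB; 1 point per library). Il23r shows a gap between numbers like that of the members, whereas Il17a, Il17f and Il22 stay high in all 4 libraries, with Il17a between 799 and 2330 TPM.

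Lists for other gamma-delta and T cell types gave the following context, each with 0 genes past the limma threshold for UVB. Of 9 genes of the epidermal gamma-delta list 4 were tested, and all 4 were higher in both libraries numbered 1, beside 18.5% of all genes. Among them were Il2rb at 493, 328, 161 and 235 TPM, Itgae, the integrin that binds epithelial cadherin, at 338, 176, 83.1 and 24.7 TPM, and Trgv5 as above. Trgv5 passed the filter through the libraries numbered 1 alone, so its order was fixed. Of the untested genes, Ccr10 had 0, 0.193, 0.160 and 29.6 TPM, and Xcl1, Cd160, Fgf7 and Igf1 had 0.111 TPM or less. Means were lower with UVB for 3 of the 4 tested genes, and for all 4 by mean TPM, with a median of -0.53. Of 6 genes of interferon-producing gamma-delta T cells 2 were tested, Il2rb and Cd27, both with lower means with UVB and a median of -0.64. Cd27 had 179, 81.4, 464 and 176 TPM. Of the untested genes of this list, Cxcr3 had 0.0243, 0.142, 78.7 and 0.445 TPM and Ifng had 0.0348, 10.8, 0 and 0.0446 TPM. Tbx21 and Eomes were listed at 0 in all 4 libraries. Signalling chains, which apart from Fcer1g both receptor types share, were also higher in both libraries numbered 1 for 4 of 5 genes. Fcer1g was 1 of these 4. The count stands beside the same 18.5%, and the median UVB difference was -0.14. Cd3e had 735, 509, 255 and 189 TPM, Cd3g 2560, 2701, 968 and 848 TPM, and Fcer1g, an adaptor that some gamma-delta receptors use, 1852, 3659, 1056 and 1265 TPM.

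Of 7 tested genes of alpha-beta T cells none was higher in both libraries numbered 1 and 4 were higher in both numbered 2, beside 18.5% and 22.5% of all genes, with a median UVB difference of -0.20. The list summed to 3248, 2573, 5194 and 2899 TPM. The Treg list had a median UVB difference of 0.06, 4 higher and 4 lower means (2 higher by mean TPM), and sums of 3133, 3919, 6403 and 4858 TPM. Its most abundant genes were Capg, an actin-capping protein, at 2367, 2869, 2377 and 1637 TPM and Ctla4, an inhibitory receptor, at 314, 548, 1496 and 1473 TPM. Innate lymphoid markers had 4 higher and 2 lower means and a median of 0.43, led by Id2 at 3145, 3294, 1170 and 1728 TPM and Nfil3 at 569, 222, 420 and 335 TPM, both of which T cells express as well. Medians were 0.64 for keratinocyte and 1.39 for myeloid markers, beside 0.26 over all genes. All 11 tested myeloid genes were higher with UVB on the log2 scale and 10 of 11 by mean TPM. Over all genes 6278 of 10286 were higher on the log2 scale, and 0 myeloid genes passed the limma threshold. Of 7 B cell markers 1 was tested, Cd79b, and Cd22 had 4.25, 0, 0 and 0 TPM.

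The protein families of the lineage members were compared to see whether relatives showed the same order. Among Src family kinases, Lck, the kinase of the T cell receptor, had 89.2, 64.3, 153 and 98.1 TPM and was higher in the libraries numbered 2, the reverse of Blk. Fyn had 84.1, 66.3, 15.8 and 34.7 TPM. Lyn, best known from myeloid and B cells, had 24.3, 117, 0.240 and 0.263 TPM. Fgr had 22.3, 1.48, 0.141 and 23.7 TPM, and Src was near 0 except in UVB replicate 2, at 19.7 TPM. Of 6 tested family members 4 were higher in both libraries numbered 1, including Blk itself, and 1 in both numbered 2, beside 18.5% and 22.5% of all genes. Blk and Lyn passed the filter through the libraries numbered 1 alone, so their order was fixed. The relatives of Sox13 in the SoxD group, Sox5 and Sox6, were listed at 0 in all 4 libraries. Of the scavenger receptor cysteine-rich family, to which both SCART proteins belong, Cd163 was listed at 0 throughout, whereas Cd5 had 47.8, 138, 221 and 145 TPM and Cd6 had 94.0, 114, 85.8 and 250 TPM. Neither Cd5 nor Cd6, which mark T cells, separated the libraries numbered 1 on the high side.

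Genes with a profile most like the mean profile of the 10 members were found by the root mean square distance of centred log2(TPM + 1) values over the 4 libraries, among 5927 genes with at least 10 TPM in 2 libraries. The nearest 7 were Rab19, Ascc1, Il23r, Thoc6, Gmppa, Pigp and Asah1, at distances of 0.23 to 0.43, against a median of 3.35 for all candidates. Rab19, a small GTPase of vesicle traffic, had 106, 96.0, 0.181 and 0.796 TPM. Asah1, the lysosomal acid ceramidase, had 146, 126, 0.567 and 0.571 TPM. Thoc6, a subunit of the mRNA export complex THO, had 91.2, 105, 0.418 and 0.583 TPM. Il23r is the type 17 gene among these, beside Ascc1, Gmppa and Pigp, whose products act in transcription, sugar nucleotide synthesis and membrane anchor synthesis in many cell types. The profile itself was not rare, since 186 genes lay within a distance of 1 and 724 within 2.10, the distance of the member farthest from the mean, 5830411N06Rik. The nearest member was Cd163l1, at 0.53. With 4 libraries such a profile is set almost wholly by the contrast between numbers.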

How the data were processed

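Per the labels' protocols, libraries were made from total RNA with an ultra-low-input SMARTer kit and sequenced as single-end 100 bp reads. HISAT2, StringTie and DESeq2 were used on GRCm38 (mm10), per the submitters' processing notes, which give no version or role. Each library has 1 deposited table of genes, which holds coverage (mean depth per base), FPKM and TPM, per the file headers. No source used here gives strandedness, sorting or annotation version.

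Rows of 1 gene ID were summed, which gave 55487 genes. Depth was computed from the deposited coverage and FPKM. The files hold no counts, so log2(TPM + 1) of the 10286 genes that reached 1 TPM in 2 or more libraries was compared between UVB and non-UVB with limma 3.58.1 (R 4.3.3, intensity trend) and Benjamini-Hochberg adjustment over all of them, at a threshold of 0.05. The test was tried on simulated data first. Levels by replicate number are described without a test. Sequences came from GENCODE M21.

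The members, lists and rules were chosen with earlier results of these data known. Named were the members, receptor locus genes with at least 10 TPM, 8 receptor, Treg and type 17 genes, the 2 most abundant genes of each of 13 lists, up to 3 type 17 genes per direction, family members with at least 10 TPM and the 8 nearest profiles. Cd4, Il22, Trdv5, Cd163, Sox5, Sox6, Ikzf4, the untested genes of the epidermal and interferon lists and the B cell markers other than Cd79b and Cd22 fall outside this rule. They were named after their values were seen. Some genes that the rule takes are left out of the text. Alternatives changed the pseudocount, filter, unit, scaling and spread model, used a replicate block, and omitted every library once.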

Additional observations from a re-analysis of the deposited data

How the results depend on the processing

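With limma, 0 genes and 0 members passed the threshold under all 13 alternatives: pseudocounts of 0.1 and 10, no filter, a filter of 5 TPM, FPKM, quantile normalization, TPM without haemoglobin genes, no intensity trend, the replicate block and the omission of each library. Directions were less stable. Trdv4 turned to -0.046 log2 without haemoglobin genes, and quantile normalization turned Trgc1 to -0.068, Trgv6 to -0.62 and Cd163l1 to -0.088. Every member changed sign with some library left out, where the lone library is taken to vary as the other group does. The differences then ranged from -2.25 to 2.57 for Trdc, -2.56 to 2.64 for Trdv4, -3.62 to 4.71 for Trgc1, -1.71 to 6.29 for Trgc2, -4.50 to 3.43 for Trgc4, -4.10 to 4.47 for Trgv6, -4.47 to 2.36 for Sox13, -3.73 to 3.64 for Blk, -3.42 to 4.88 for Cd163l1 and -0.0076 to 5.23 for 5830411N06Rik. Each omission leaves 1 library of one number against both of the other group. The labels do not say that a number marks a shared source, and deviations of same-numbered libraries correlated at 0.165 over 10286 genes. With the replicate block the differences were the same (0.16 for Trdc, 2.29 for Trgc2, 2.61 for 5830411N06Rik) and their standard errors were 0.41, 1.40 and 1.65, with adjusted p-values between 0.776 and 0.999 for the members (limma, Benjamini-Hochberg) and 0 genes past the threshold. The median log2 ratio between numbers was 7.97 by TPM, 8.54 by deposited coverage, which is not scaled to depth, 7.43 within the UVB and 8.72 within the non-UVB libraries. The summed TPM of the members was 40.7 times higher in the libraries numbered 1, and 32.7 times without the gamma constant genes. Depth limits the lowest values: Trgc4 rested on about 17.6 and 11.2 reads in the libraries numbered 2.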
